A study of Mus musculus with 2 samples.

Results

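The cell cycle and DNA replication genes described here are 42 of the 55536 genes in the deposited mouse gene tables. They were found by gene symbol in the transcript tables and joined to the gene tables by gene identifier, and all 42 were present. By role they divide into 11 DNA replication genes, 14 genes of G2 and M phase, 8 G1 cyclins and kinases, 4 genes of the E2F, Rb and Myc group and 5 inhibitors of cyclin-dependent kinases (CDKs). PolyA RNA was sequenced in 2 libraries of bone marrow-derived macrophages from C57BL/6J mice, which are macrophages grown in culture from marrow precursors. Both libraries belong to 1 group: per the labels' description the cells received Lipid A at 100 ng/ml for 12 h, were left without it for 12 h and received 100 ng/ml again for 300 min. The treatment field names lipoprotein A instead, and the labels do not say which is meant. The libraries have separate biosample identifiers and the same donor identifier, sex and age were not collected, and untreated or singly treated cells were not analysed here. No comparison of treatments was therefore made and no test was run. The data describe the level of each gene, its spread between the replicates and the contrast between the S and M phase genes and the CDK inhibitors.

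Cells enter the division cycle when D-type cyclins activate Cdk4 and Cdk6, which phosphorylate the retinoblastoma protein and release E2F transcription factors, and cyclin E with Cdk2 then drives entry into S phase. E2F targets include the MCM helicase, the PCNA clamp and the enzymes that make deoxynucleotides, whereas the genes of G2 and M phase are expressed later in the cycle and are repressed in resting cells by the DREAM complex, which binds the cell cycle homology region (CHR). CDK inhibitors of the Cip/Kip and INK4 families hold the kinases in check. Macrophages in culture divide in response to their growth factor, and lipopolysaccharide is known to arrest that division.

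The promoters of the members were compared by motif, a property that does not depend on the levels. As set out above, the CHR and E2F sites are known from genes of these roles. Their shares by role are therefore a description and no independent test. RefSeq promoters (GRCm38.p6, from 250 bases before to 50 bases after a start site) were at hand for 33 of the 42 members, as 38 promoters. The 9 members without an entry were Mcm4, Ccna2, Aurkb, Ccnd1, Ccnd2, Ccne2, Rb1, Myc and Cdkn1c. Both strands were searched for the CHR (TTTGAA), the CCAAT box (CCAAT) and E2F sites (TTTGGCGC, TTCCCGCC, TTTCCCGC or GGCGGGAA). The second and the last of the E2F words are reverse complements of each other and the third overlaps them. RefSeq start sites can differ from the ends of the GENCODE genes used for the levels. The stretches below hold the 120 bases before the start site of replication genes with E2F sites, of G2 and M phase genes with CHRs, and of both Cdkn1a starts, where no motif was found. Capitals mark the motif matches on either strand.
Mcm6, replication, chr1:128359706-128359825, minus strand: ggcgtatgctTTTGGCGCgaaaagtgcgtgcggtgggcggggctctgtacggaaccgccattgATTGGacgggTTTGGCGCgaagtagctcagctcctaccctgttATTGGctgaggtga
Rrm1, replication, chr7:102441575-102441694, plus strand: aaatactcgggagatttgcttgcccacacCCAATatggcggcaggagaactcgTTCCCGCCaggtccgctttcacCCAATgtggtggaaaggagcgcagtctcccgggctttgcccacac
Cdk1, G2 and M phase, chr10:69352913-69353032, minus strand: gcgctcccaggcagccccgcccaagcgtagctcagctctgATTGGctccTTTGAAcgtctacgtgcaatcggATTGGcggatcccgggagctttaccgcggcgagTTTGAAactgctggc
Top2a, G2 and M phase, chr11:99024190-99024309, minus strand: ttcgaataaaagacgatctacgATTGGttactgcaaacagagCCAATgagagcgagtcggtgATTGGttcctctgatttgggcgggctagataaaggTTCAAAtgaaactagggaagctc
Cdc20, G2 and M phase, chr4:118437344-118437463, minus strand: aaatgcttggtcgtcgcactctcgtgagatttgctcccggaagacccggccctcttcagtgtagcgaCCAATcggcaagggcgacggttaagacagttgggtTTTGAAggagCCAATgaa
Cdkn1a, first start, chr17:29090859-29090978, plus strand: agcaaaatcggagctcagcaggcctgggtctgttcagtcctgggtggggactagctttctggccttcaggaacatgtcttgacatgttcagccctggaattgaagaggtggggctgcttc
Cdkn1a, second start, chr17:29093649-29093768, plus strand: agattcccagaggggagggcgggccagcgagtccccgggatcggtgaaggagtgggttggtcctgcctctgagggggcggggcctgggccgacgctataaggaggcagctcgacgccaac

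In the Mcm6 stretch, E2F words began 110 and 47 bases before the start site. In the Cdk1 stretch, CHRs began 71 and 15 bases before it, each downstream of a CCAAT box on the opposite strand. Among the G2 and M phase members, 9 of 12 promoters held a CHR (Mki67, Top2a, Ccnb2, Cdk1, Aurka, Plk1, Bub1b, Iqgap3 and Cdc20), against 17.9% of the 32851 RefSeq mouse promoters. None of these 12 held an E2F word, against 3.21% of all promoters. Of the promoters of replication members, 6 of 11 promoters held an E2F word (Mcm3, Mcm5, Mcm6, 1 of the 2 of Mcm7, Rrm1 and Pclaf) and 1 held a CHR (Mcm2). CCAAT boxes were found in 10 of 12 and 10 of 11 promoters of these roles, against 37.4% of all promoters. Among the 6 promoters of the CDK inhibitors none held a CHR or an E2F word and 3 held a CCAAT box, and among the 6 of the G1 cyclins and kinases 1 held an E2F word (Cdk2). A match is a description of letters, and its absence says only that these letters are not in the window.

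**Figure D1:**
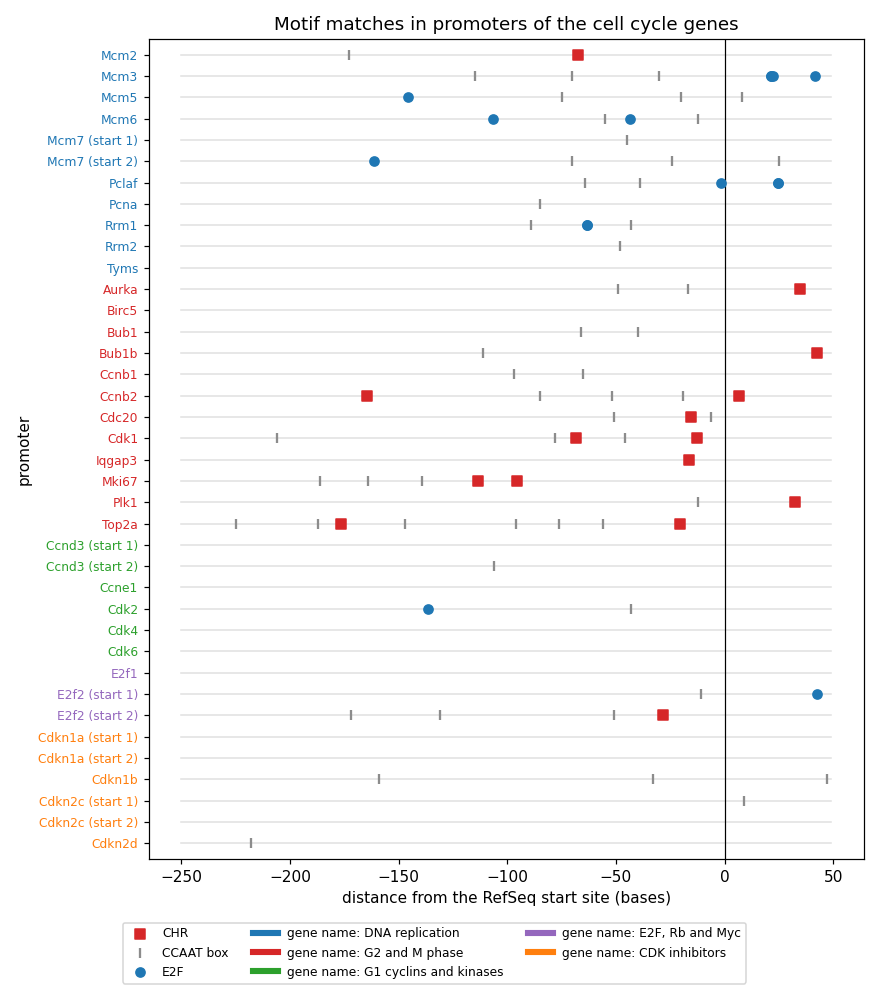
Motif matches in the 38 RefSeq promoters of 33 members, by distance in bases from the start site; squares are CHRs, circles E2F words and grey strokes CCAAT boxes, and the colour of a gene name gives its role. The red squares lie in 9 of the 12 G2 and M phase promoters, and the blue circles in 6 of the 11 replication promoters.

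The libraries held 50503160 counts in replicate 1 and 46342327 in replicate 2 over all genes, and 10934 and 10958 genes reached 1 TPM (a transcript level scaled to length and to the same total in every library). The 12 macrophage markers were all at 1 TPM or more in both libraries and summed to 22907 and 22600 TPM. Neutrophil markers were higher in replicate 1: the 13 genes summed to 73.7 TPM there and to 7.38 TPM in replicate 2, most of it S100a8 and S100a9, whereas the granulocyte genes Ly6g and Retnlg had 0 counts in both libraries. Of 10 erythroid and megakaryocyte markers 6 had 0 counts in both libraries, and stem and progenitor markers summed to 0.48 and 0.82 TPM.

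Across the 42 members, 31 were at 1 TPM or more in both libraries, 13 at 10 TPM or more and 2 at 100 TPM or more, the CDK inhibitor gene Cdkn1a and the clamp gene Pcna. A further 6 were under 1 TPM in both libraries (Ccnb2, Plk1, Bub1, Bub1b, Cdc20 and E2f2), and 5 lay above 1 TPM in replicate 1 and below it in replicate 2 (Pclaf, Ccna2, Birc5, Iqgap3 and Ccne2). The median member stood at 5.54 and 5.70 TPM in replicates 1 and 2, against 10.7 and 10.9 TPM for the 12543 genes that passed the filter on low counts (a mean of 10 counts and edgeR's default minimum in both libraries). In bulk RNA, fewer cells of a type and less RNA per cell cannot be told apart, so a low level of a mitotic gene does not separate few dividing cells from a low level in every cell.

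**Figure D2:**
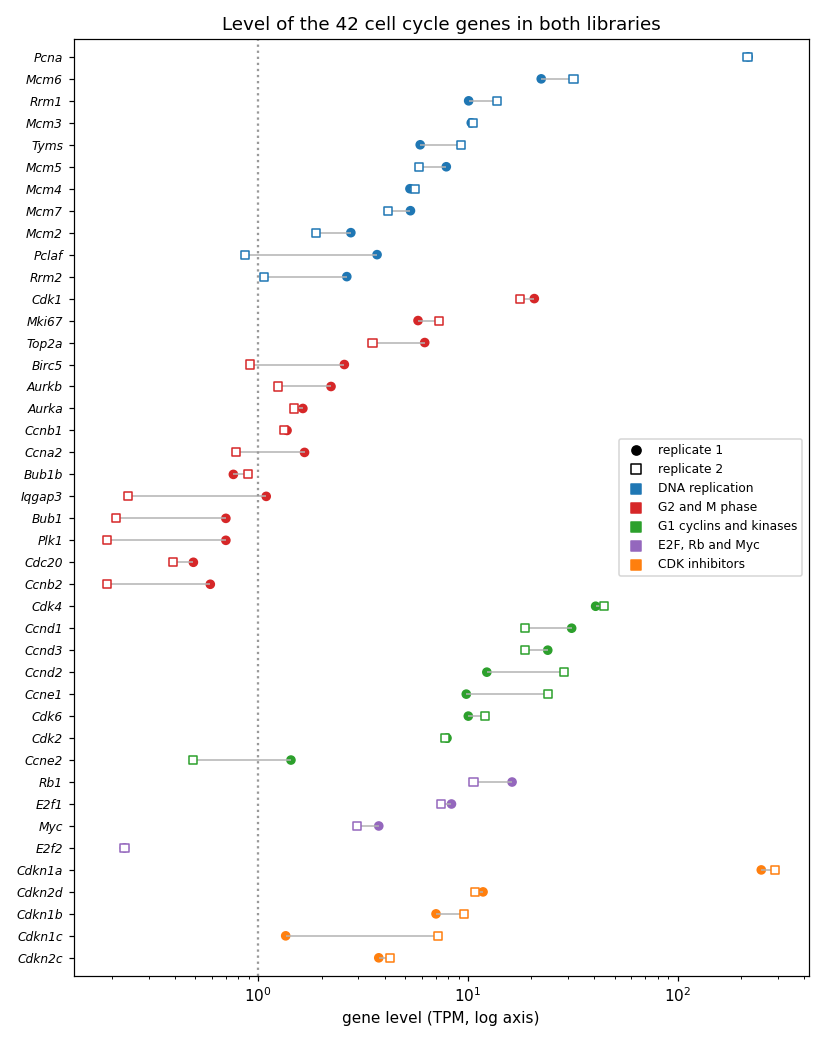
Level of each member in TPM on a log axis, ordered by mean level within its role; filled circles are replicate 1 and open squares replicate 2, and the dotted line marks 1 TPM. Cdkn1a and Pcna lie above 200 TPM in both libraries, while most G2 and M phase genes lie near or below 1 TPM.

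The CDK inhibitors stood above the G2 and M phase genes and close to the replication genes. The median of the 5 inhibitors was 7.03 and 9.60 TPM in the replicates (8.32 ± 1.82, SD, n = 2), that of the 14 G2 and M phase members 1.5 and 0.90 TPM (1.20 ± 0.42), and that of the 11 replication members 5.91 and 5.81 TPM (5.86 ± 0.071). On the log2(TPM + 1) scale the inhibitors' median was 1.68 and 2.48 above that of the G2 and M phase members (2.08 ± 0.56, SD, n = 2), which exceeds the spread between replicates. Their distance from the replication median was 0.22 and 0.64 (0.43 ± 0.30), of the same order as that spread. Summed levels gave the same order for the first contrast, with 274 and 323 TPM for the inhibitors and 46.4 and 36.3 TPM for the G2 and M phase genes, but this order rested on Cdkn1a: the other 4 inhibitors summed to 23.9 and 31.9 TPM, below the G2 and M phase genes in both libraries. The replication genes summed to 292 and 299 TPM, and to 76.2 and 84.7 TPM without Pcna.

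The unit of comparison between the libraries was the log2 ratio of replicate 2 over replicate 1 of counts normalised by TMM, which scales each library to the bulk of its genes. Its median over all 12543 genes was 0.00, with a median absolute value of 0.21, whereas the median absolute value over the 41 members that passed the filter was 0.44. Ccnb2, with 27 and 8 counts, did not pass. Among the 41 members, 29 were higher in replicate 1 and 12 in replicate 2, and 8 were at least 2-fold higher in replicate 1 (Pclaf, Rrm2, Iqgap3, Bub1, Plk1, Ccna2, Birc5 and Ccne2), against 1.91% of all genes. A 2-fold or larger excess in replicate 2 was found for 3 members (Cdkn1c, Ccnd2 and Ccne1), against 2.30% of all genes. Low counts vary more, so the same counts were read by depth. Under a mean of 100 counts, 5 of 11 members were 2-fold higher in replicate 1 and none in replicate 2, against 7.02% and 6.50% of all genes in that range. Between 100 and 1000 counts they were 3 and 2 of 19 members, against 1.13% and 2.28%, and from 1000 counts on 0 and 1 of 11, against 0.28% and 0.507%. From a mean of 100 counts on, 3 members were thus 2-fold higher in replicate 1 (Iqgap3, Rrm2 and Pclaf).

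**Figure D3:**
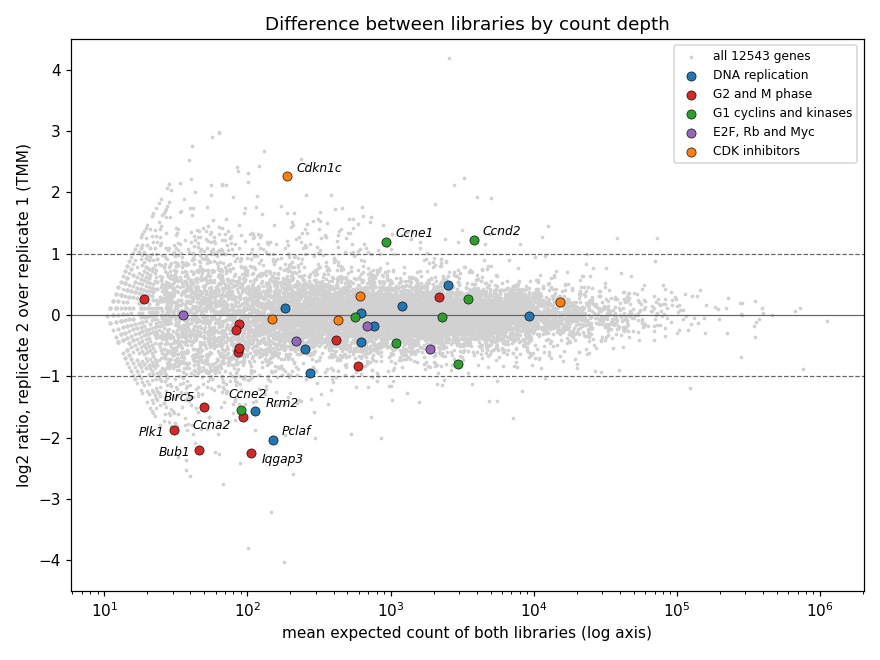
Log2 ratio of replicate 2 over replicate 1 against the mean expected count on a log axis, for all 12543 genes that passed the filter (grey) and the 41 members among them, coloured by role; dashed lines mark 2-fold. The named members are those at or past 2-fold: 8 lie below the lower line at up to about 150 counts, and Cdkn1c, Ccne1 and Ccnd2 lie above the upper line.

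Sampling error was given for each member as the exact 95% binomial (Clopper-Pearson) interval of its ratio, which covers counting error only and not the difference between cultures. For 21 of the 41 members the interval lay below 0, for 9 above 0 and for 11 across it. Over all 12543 genes the interval lay below 0 for 29.5% and above 0 for 28.4%. The second deposited quantification, made directly from the reads, gave the same sign for 39 of the 41, the exceptions being Tyms and Pcna, both close to 0. Counts and TPM differed in direction for 5 members (Mcm3, Bub1b, Cdc20, Cdk4 and Cdkn2c), since TPM also takes in the lengths of the transcripts to which reads were assigned. In the paragraphs that follow, higher and lower between the libraries refer to the count ratio.

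The DNA replication genes were led by Pcna (chromosome 2, 132249162 to 132253314, mm10), the sliding clamp that holds DNA polymerases on their template, at 216 and 215 TPM in replicates 1 and 2 (215 ± 0.89, SD, n = 2). It ranked 689th of all genes by mean TPM, and its ratio of -0.01 had an interval from -0.05 to 0.03. Its level was thus nearly equal in both libraries. Subunits of the MCM helicase, which unwinds the template as a hexamer of Mcm2 to Mcm7, were not at equal levels. Mcm6 stood at 22.3 and 31.8 TPM, above the other 5 subunits in both libraries, and took 41.4% and 53.2% of the summed MCM level. Mcm3 followed at 10.4 and 10.5 TPM. Mcm2 was the lowest subunit at 2.76 and 1.89 TPM, so that Mcm6 exceeded it 8.08-fold and 16.8-fold. Mcm5 stood at 7.87 and 5.81 TPM, Mcm4 at 5.28 and 5.58 TPM and Mcm7 at 5.31 and 4.13 TPM. The subunits did not differ in the same direction between the libraries: Mcm6 was higher in replicate 2 (ratio 0.49, interval 0.41 to 0.57), while Mcm7 (-0.95, -1.22 to -0.69), Mcm2 (-0.56, -0.82 to -0.29), Mcm5 (-0.44, -0.61 to -0.28) and Mcm3 (-0.18, -0.33 to -0.03, with TPM nearly equal and slightly higher in replicate 2) were higher in replicate 1, and the interval of Mcm4 spanned 0.

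The enzymes that make deoxynucleotides also differed in opposite directions. Rrm1, the large subunit of ribonucleotide reductase, stood at 10.1 and 13.8 TPM, with 1193 and 1215 counts. Rrm2, the S phase form of its small subunit, stood at 2.64 and 1.06 TPM, with 172 and 53 counts. Rrm1 exceeded Rrm2 in both libraries, 3.81-fold in replicate 1 and 13.0-fold in replicate 2, and their ratios were 0.14 (0.03 to 0.26) and -1.57 (-2.05 to -1.13). Tyms, thymidylate synthase, had 182 counts in both libraries and stood at 5.91 and 9.21 TPM, with its reads assigned to transcripts of different lengths. Pclaf (chromosome 9, 65890237 to 65903266), a PCNA-binding factor, had 247 counts and 3.68 TPM in replicate 1 and 55 counts and 0.86 TPM in replicate 2. Its ratio of -2.04 (-2.50 to -1.62) was the lowest of the role. Over the 11 replication members the median ratio was -0.18, with 7 higher in replicate 1 and 4 in replicate 2.

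The G2 and M phase genes were low except for Cdk1, Mki67 and Top2a. Cdk1 (chromosome 10, 69335146 to 69352938), the kinase that drives mitosis, stood at 20.7 and 17.6 TPM and made up 44.5% and 48.6% of the summed level of the role. Its cyclin partners were far below it: Ccnb1 stood at 1.37 and 1.32 TPM, Ccnb2 at 0.59 and 0.19 TPM, and Ccna2, the S and G2 phase cyclin, at 1.66 and 0.78 TPM. Mki67, which coats mitotic chromosomes and serves as a proliferation marker, had 5.77 and 7.29 TPM with 2056 and 2331 counts. Top2a, the topoisomerase that untangles sister chromatids, had 6.21 and 3.50 TPM with 779 and 402 counts. These proliferation markers differed in opposite directions between the libraries, at 0.30 (0.21 to 0.38) for Mki67 and -0.84 (-1.02 to -0.66) for Top2a.

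The mitotic kinases and their partners were near 1 TPM. Aurka, the spindle pole kinase, stood at 1.63 and 1.48 TPM. Aurkb, the kinase of the chromosomal passenger complex, stood at 2.22 and 1.24 TPM, and its partner Birc5 (survivin) at 2.57 and 0.91 TPM. Both passenger genes were higher in replicate 1. Plk1, a kinase of mitotic entry and spindle assembly, had 49 and 12 counts, or 0.70 and 0.19 TPM. The spindle checkpoint genes Bub1 and Bub1b had 0.70 and 0.21 TPM, and 0.76 and 0.89 TPM. Cdc20, the activator of the anaphase-promoting complex, had 18 and 20 counts, or 0.49 and 0.39 TPM. Plk1, Bub1, Bub1b and Cdc20 thus had 12 to 94 counts, against a floor of 3 counts per library, a chosen setting and not a measured limit.

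Of the 13 G2 and M phase members that passed the filter, 11 were higher in replicate 1 and 2 in replicate 2 (Mki67 and Cdc20), and the median ratio was -0.60. In TPM, Cdc20 was instead higher in replicate 1 and Bub1b in replicate 2, and the intervals of both spanned 0. Iqgap3 (chromosome 3, 88081971 to 88121048), a scaffold protein expressed in proliferating cells, had 177 and 34 counts and the lowest ratio of all members at -2.25 (-2.84 to -1.73). Bub1 followed at -2.21 (-3.15 to -1.43), then Plk1 at -1.87 (-2.96 to -0.98), Ccna2 at -1.67 (-2.21 to -1.18) and Birc5 at -1.51 (-2.26 to -0.85). Top2a, Ccnb1, Aurkb and Cdk1 differed by less, from -0.84 to -0.41, with intervals below 0. For Aurka, Bub1b and Cdc20 the interval spanned 0. Ccnb2 had 27 and 8 counts, an interval of -2.99 to -0.46. Higher in replicate 1 as well were the neutrophil markers S100a8 (189 and 12 counts), S100a9 (344 and 19) and Mmp8 (429 and 182), the 3 of 13 that passed the filter. Of those that did not pass, Ngp had 172 and 2 counts and Ltf 52 and 1. The erythroid and megakaryocyte markers had 43 and 15 counts in all, of which Itga2b took 39 and 10. The 7 mast cell and basophil markers had 20 and 0. B cell markers had 183 and 135 counts, and the 2 of 8 that passed the filter were higher in replicate 1. T and NK cell markers had 4462 and 3764 counts, not scaled for depth, and 8 of these 9 were under 1 TPM in both libraries. Of the 2 T and NK cell markers that passed, 1 was higher in each library. Stem and progenitor markers had more counts in replicate 2, at 40.0 and 84.1, as did fibroblast and stroma markers, at 287 and 354. The part of these cell types in the difference of the mitotic genes was not tested.

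Among the G1 cyclins the D-type genes had nearly equal sums in both libraries, made up of unequal shares. Together they reached 67.4 and 66.1 TPM (66.8 ± 0.90, SD, n = 2). Ccnd1 (chromosome 7, 144929931 to 144939925) stood at 31.2 and 18.7 TPM, Ccnd2 (chromosome 6, 127125162 to 127152193) stood at 12.3 and 28.7 TPM, and Ccnd3 at 24.0 and 18.7 TPM. The leading D-type gene was thus Ccnd1 in replicate 1, with 46.2% of the sum, and Ccnd2 in replicate 2, with 43.4%. These genes had from 876 to 5196 counts, and their intervals did not reach 0: Ccnd1 at -0.80 (-0.87 to -0.72), Ccnd2 at 1.22 (1.15 to 1.29) and Ccnd3 at -0.46 (-0.59 to -0.34). The partner kinases differed less, with Cdk4 at 40.5 and 44.3 TPM (ratio -0.04) and Cdk6 at 10.02 and 12.02 TPM (0.27).

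The E-type cyclins, which activate Cdk2 at the start of S phase, differed in opposite directions. Ccne1 (chromosome 7, 38097984 to 38107534) had 604 and 1269 counts, or 9.80 and 24.2 TPM, and a ratio of 1.19 (1.05 to 1.33). Ccne2 had 138 and 42.9 counts, or 1.43 and 0.49 TPM, and a ratio of -1.56 (-2.10 to -1.06). Ccne1 therefore exceeded Ccne2 6.85-fold in replicate 1 and 49.3-fold in replicate 2. Cdk2 stood at 7.93 and 7.72 TPM, with a ratio of -0.04 whose interval spanned 0.

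In the E2F, Rb and Myc group, Rb1, the pocket protein that restrains E2F, stood highest at 16.2 and 10.6 TPM. E2f1, an activator E2F, had 8.33 and 7.44 TPM, whereas the activator E2f2 was the lowest of the 42 members at 0.23 TPM in both libraries. E2f1 exceeded E2f2 36.2-fold and 32.3-fold. Myc, a transcription factor of growth and G1 progression, had 3.75 and 2.96 TPM. All 4 genes were on the replicate 1 side, at -0.55 (-0.65 to -0.45) for Rb1, -0.43 (-0.72 to -0.15) for Myc, -0.18 (-0.33 to -0.02) for E2f1 and -0.01 for E2f2, whose interval from -0.72 to 0.71 spanned 0.

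Cdkn1a (chromosome 17, 29090976 to 29100727), the p53 target that encodes the Cip/Kip inhibitor p21, was the highest member of all at 250 and 291 TPM (270 ± 28.9, SD, n = 2), and ranked 565th of all genes by mean TPM. It took 91.3% and 90.1% of the summed level of the inhibitors. Its level was 12.1 and 16.5 times that of Cdk1, or 22.8 and 30.1 times over protein-coding transcripts only, 31.5 and 37.7 times that of Cdk2 and 182 and 220 times that of Ccnb1. On the log2(TPM + 1) scale its distance from Cdk1 was 3.75 ± 0.31 (SD, n = 2), or 4.58 ± 0.27 over protein-coding transcripts, and from Pcna 0.32 ± 0.16. The highest inhibitor gene and the highest replication gene thus lay within 1.16-fold and 1.35-fold of each other. With 14814 and 15736 counts, the ratio of Cdkn1a was 0.20 (0.17 to 0.24).

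The other Cip/Kip members were lower. Cdkn1b, which encodes p27, stood at 7.03 and 9.60 TPM, with a ratio of 0.30 (0.14 to 0.47). Cdkn1c (chromosome 7, 143458339 to 143461050), which encodes p57 and is an imprinted gene, had 70.0 and 311 counts, or 1.35 and 7.19 TPM, and the highest ratio of all members at 2.26 (1.89 to 2.66). Its reads were in part shared with other transcribed regions, with an SD from their assignment of 1.54 and 1.68 counts. The INK4 inhibitors, which bind Cdk4 and Cdk6, differed little: Cdkn2d stood at 11.8 and 10.8 TPM and Cdkn2c at 3.75 and 4.26 TPM, and both intervals spanned 0. Their sum of 15.5 and 15.1 TPM compared with 50.6 and 56.3 TPM for Cdk4 and Cdk6 together. The other INK4 genes, Cdkn2a and Cdkn2b, are no members and had 1 and 2 counts, and 9 and 15 counts. The 5 inhibitor members had a median ratio of 0.20, with 3 intervals above 0, 2 across it and none below.

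**Figure D4:**
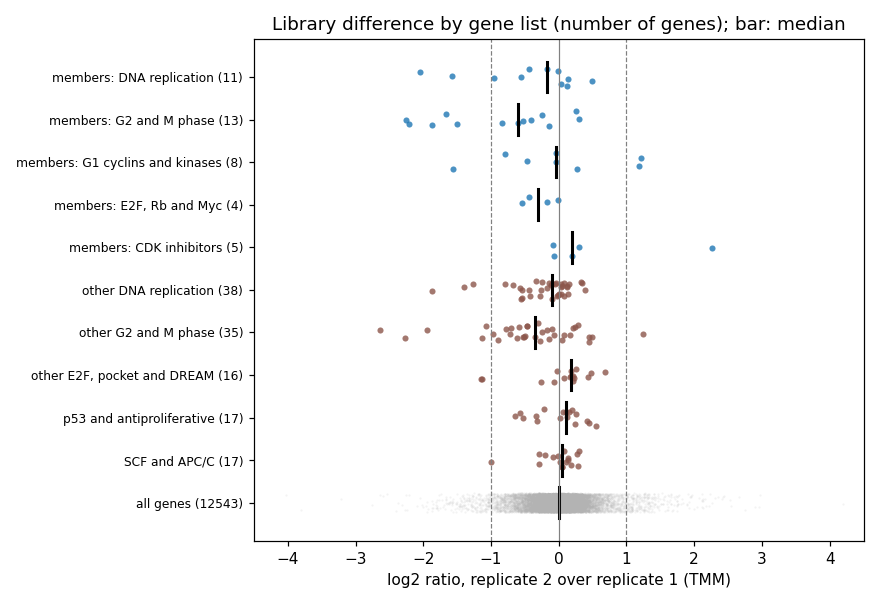
Log2 ratio of replicate 2 over replicate 1 for each gene that passed the filter, by role of the members (blue), by list of other pathway genes (brown) and for all 12543 genes (grey); numbers in brackets count the genes, black bars are medians and dashed lines mark 2-fold. The bar of the G2 and M phase members lies at -0.60 and that of the CDK inhibitors at 0.20.

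Further genes of the pathway were read from lists by function. Of 38 other DNA replication genes, all of which passed the filter, 25 were higher in replicate 1 and 13 in replicate 2, with a median ratio of -0.10. The clamp loader gene Rfc2 was the highest at 49.8 and 52.0 TPM, of which coding transcripts held 14.5% and 15.6%, followed by Rfc3 at 25.2 and 27.5 TPM, and the origin licensing gene Cdc6 the lowest at 0.65 and 0.20 TPM. The largest differences among genes with a mean of 100 counts were those of the thymidine kinase gene Tk1 at -1.87 and of Uhrf1, which maintains DNA methylation, at -1.41. The 40 other G2 and M phase genes had medians of 1.82 and 1.24 TPM, and of the 35 that passed the filter 25 were higher in replicate 1 and 10 in replicate 2, with a median ratio of -0.35. The securin gene Pttg1 stood far above the rest at 165 and 200 TPM, followed by Incenp, of the passenger complex, at 20.8 and 23.7 TPM, and Cenpf, a kinetochore gene, was lowest with 34 and 5 counts. Of these 35 genes, 5 were 2-fold higher in replicate 1 (Hmmr, Kif11, Anln, Nuf2 and Kif2c, named after their values were seen), against 1.91% of all genes. All 5 had a mean under 100 counts, where 7.02% of all genes were 2-fold higher in replicate 1. The call of Hmmr depended on the quantification. Its level was 0.57 and 0.08 TPM in the first, but 6.51 and 5.27 TPM with a ratio of -0.29 in the second. In replicate 2, 1 gene was 2-fold higher, against 2.30% of all genes. It was the spindle assembly gene Tpx2 (12.8 and 30.5 TPM, ratio 1.24). Among genes with a mean of 100 counts, Prc1 (-0.90) and Spc25 (-0.72) were higher in replicate 1.

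Of 16 other E2F, pocket protein and DREAM genes that passed the filter, 5 were higher in replicate 1 and 11 in replicate 2, with a median ratio of 0.18. Rbbp4 stood highest at 41.6 and 48.9 TPM, then the pocket protein gene Rbl1 at 33.6 and 40.7 TPM, and the repressor gene E2f7 lowest with 27 and 2 counts. The 2 genes that differed by 2-fold or more were both higher in replicate 1, Foxm1 (118 and 49 counts, -1.14) and Mybl2 (41 and 17 counts, -1.13). They encode activators of late cell cycle genes and were named after their values were seen. Both had a mean under 100 counts, where 7.02% of all genes were 2-fold higher in replicate 1. Among genes with a mean of 100 counts, E2f8 differed by 0.69, E2f5 by 0.44 and E2f4 by -0.27. Among 17 genes of the p53 and antiproliferative list, 6 were higher in replicate 1 and 11 in replicate 2, none by 2-fold, with a median ratio of 0.11. Its highest genes were Gadd45b at 365 and 384 TPM and Plk2 at 106 and 113 TPM, and its lowest Plk3 at 2.35 and 1.89 TPM. Tob1 (-0.65), Btg2 (-0.57) and Gadd45g (0.55) differed most. The 17 genes of the ubiquitin ligases SCF and APC/C had a median ratio of 0.05, with Skp1a highest by mean level at 119.7 and 102.2 TPM, then Anapc5 at 87.5 and 106 TPM, which led in replicate 2, and the APC/C inhibitor gene Fbxo5 lowest at 1.49 and 0.63 TPM. Fbxo5 also had the largest difference of the list (-0.99, with 76 and 35 counts), and among genes with a mean of 100 counts Fzr1 (-0.30), Fbxw7 (0.30) and Anapc11 (-0.29) differed most.

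The transcript tables gave a further view of what the gene levels are made of. The 42 members had 229 annotated transcripts, and 37 members had the same leading transcript in both libraries. Its share of the gene's TPM was 60% or more in both libraries for 30 members. Protein-coding transcripts held 90% or more of the TPM in both libraries for 28 members. They held less than 75% in either library for 10 members. Of these, 7 were G2 and M phase genes (Top2a, Ccna2, Cdk1, Aurkb, Bub1, Bub1b and Cdc20) and 3 replication genes (Mcm3, Rrm1 and Tyms). Few reads lay behind some of these shares. The non-coding part was 0.85 counts for Bub1 and 1.16 for Bub1b in replicate 2, and 1.96 for Cdc20 in replicate 1. In Ccna2 it was 9.8 counts in replicate 2, and in Aurkb 5.13 and 1.11 counts on separate transcripts in replicate 1. The shares were not set beside those of all genes. All 5 CDK inhibitors had a coding share above 99%. For Cdkn1b, Cdkn2c and Cdkn2d every annotated transcript is protein-coding, so the annotation alone sets their share at 100%.

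In Cdk1 the protein-coding share was 52.9% and 54.6%, and a retained-intron transcript of 475 nt with 75.9 and 58.3 counts had 9.74 and 8.0 TPM. The leading coding transcript, of 1253 nt, had 384 and 236 counts and 10.7 and 7.19 TPM. Fewer reads on the short form thus gave a level close to that of the coding form. Tyms was the member with a leading transcript by TPM that is not coding. A nonsense-mediated decay transcript of 618 nt held 58.4% and 58.0% of the TPM, and coding transcripts 27.2% and 9.89%. In counts this short form had 44.2 and 63.5, against 104.5 and 53.2 for the longest coding form of 3163 nt. More reads thus lay on that coding form in replicate 1. In Rrm1 a nonsense-mediated decay transcript stood at 0.82 and 4.54 TPM while the coding transcript stood at 8.62 and 9.21 TPM. They had 14.3 and 73.25 counts, and 1168 and 1141 counts. The share of the decay form in replicate 1 was 8.14% in the first quantification and 0.00058% in the second. In replicate 2 it was 32.9% and 27.5%. The leading transcript of Ccnb1 differed between the libraries, with the longest form at 93.4% and 36.4%. Few counts stood behind that difference, 103 and 35.8 for this form. Strand handling is not stated in the sources used here, and 17 members overlap a gene on the opposite strand, among them Cdk4 (Tspan31), Ccna2 (Exosc9), Ccne2 (Ints8), Pclaf (Trip4) and Cdc20 (Elovl1), so reads of these partners may not have been told apart. In counts, Cdk4 had the largest uncertainty from shared reads, an SD of 16.7 on 2420 in replicate 1. Relative to the count it was larger for genes such as Cdkn1c (1.54 on 70.0) and Ccna2 (2.99 on 146) in that library.

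**Figure D5:**
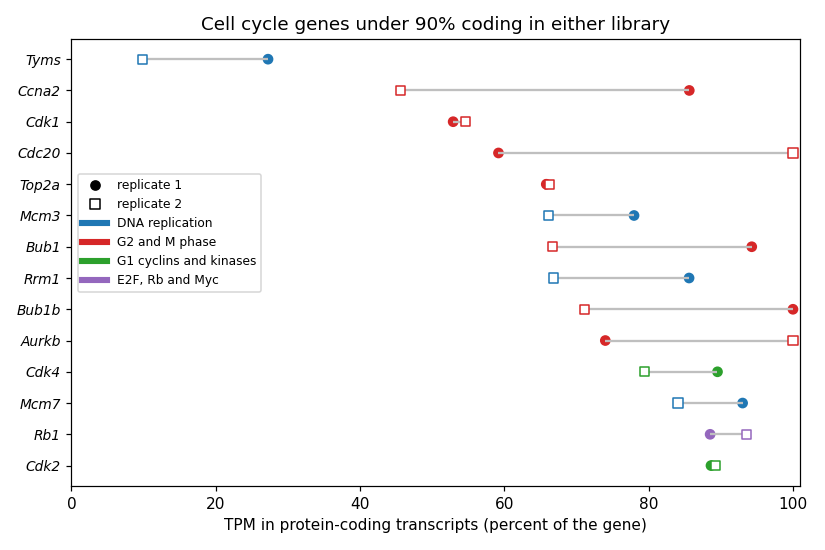
Share of a gene's TPM in protein-coding transcripts, in percent, for the 14 members under 90% in either library; filled circles are replicate 1 and open squares replicate 2, coloured by role. Tyms lies lowest at 27.2% and 9.89%, and Cdk1 stays near 53% in both libraries. Few reads lie behind the low values of Bub1, Bub1b and Cdc20. No CDK inhibitor is among the genes shown, and Cdkn1b, Cdkn2c and Cdkn2d have only protein-coding transcripts annotated.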

How the data were processed

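Per the file headers, the authors deposited for each library expected counts, TPM and FPKM per gene and per transcript, with the SD of each gene's count over the assignment of shared reads, and a second table of estimated counts and TPM per transcript made directly from the reads. The text files deposited with the samples name the mm10 build and GENCODE M21, with aligner, quantifiers and strand handling not given in the sources used here. Expected counts were rounded, filtered (edgeR 4.0.16 filterByExpr and a mean count of 10 or more), normalised by TMM and compared as log2 CPM with a prior count of 0.5, in R 4.3.3. With 1 group of 2 replicates, which may be technical with respect to the animal, no test was run; called means 2-fold or more. Levels between genes were compared in TPM, with a pseudocount of 1 TPM on the log2 scale. Promoters were read from RefSeq (GRCm38.p6) by symbol. Named genes were all members and, from each pathway list, the highest 2, the lowest 1 and the 3 with the largest ratio at a mean count of 100 or more, of which 1 is not reported here. The members and lists were chosen with earlier results of these data known. Alternatives were DESeq2 1.42.0 size factors, library totals, other filters, priors and pseudocounts, FPKM, the second quantification, each library alone and coding transcripts only.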

Additional observations from a re-analysis of the deposited data

How the results depend on the processing

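The medians by role kept their direction under the alternatives run, whereas the ratios of Tyms and Pcna changed sign in the second quantification, and without Cdkn1a the summed inhibitors lay below the summed G2 and M phase genes. The replication median of 5.86 TPM was 5.61 TPM in the second quantification and 4.20 in FPKM, and 5.43 TPM over protein-coding transcripts only, an alternative chosen after seeing the data. The CDK inhibitor median of 8.32 TPM was 5.96 in FPKM. With a pseudocount of 0.1 TPM the distance of the inhibitors above the G2 and M phase genes was 2.72. The median ratio of the G2 and M phase members was -0.71 with no filter and -0.67 in the second quantification, both over 14 members in place of 13. With a mean count of 100 or more it was -0.62, but over only 4 members. Of all members, 30 were left at that filter and 3 were 2-fold higher in replicate 1. Each library alone gave medians of 5.81 to 5.91, 0.90 to 1.5 and 7.03 to 9.60 TPM for the replication, G2 and M phase and inhibitor genes. No paired analysis was possible because there is 1 group. Depth limits the members with under 100 counts in each library, which are Ccnb2, Aurka, Plk1, Bub1, Bub1b, Birc5, Cdc20 and E2f2. It also limits the ratios of members under 100 counts in a single library. These are Rrm2, Pclaf, Ccna2, Ccnb1, Aurkb, Iqgap3 and Ccne2 in replicate 2, and Cdkn1c in replicate 1. Also chosen after seeing the data were the distance of Cdkn1a over Cdk1 in coding transcripts, 4.58 against 3.75, and that of Rrm1 over Rrm2, 1.86 against 2.22. The mean sum of the inhibitors was 298 TPM and 27.9 without Cdkn1a, and that of the replication genes 296 and 80.4 without Pcna.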

Other observations

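Ribonucleotide reductase has a p53-induced small subunit, Rrm2b, used outside S phase, which was looked up after the values of Rrm1 and Rrm2 had been seen. Rrm2b stood at 7.56 and 6.77 TPM in replicates 1 and 2, above Rrm2 (2.64 and 1.06 TPM) and below Rrm1 (10.1 and 13.8 TPM) in both libraries. In the second quantification Rrm2b stood at 10.2 and 8.74 TPM and Rrm1 at 9.01 and 12.1 TPM. The order of Rrm2b and Rrm1 in replicate 1 thus depended on the quantification. The ratio of Rrm2b was -0.49, with an interval of -0.63 to -0.35.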
